A study of Mus musculus with 4 samples.

Results

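Non-dividing immature (stage I) neutrophils of mouse bone tissue were chosen by measured transcript counts, as the droplet barcodes in which transcripts of the secondary granule genes Camp, Ngp and Ltf together made up at least 2% of the unique molecular identifiers (UMIs, each standing for 1 captured transcript molecule). Members also had fewer than 3 UMIs of the division genes Top2a, Mki67 and Cdk1, fewer than 3 UMIs of the monocyte genes Csf1r, Ms4a6c and Ccr2, and less than 1% of UMIs from the primary granule genes Mpo, Elane, Prtn3 and Ctsg. Of 40003 barcodes in the 4 libraries, 31279 passed the limits on quality (1000 to 40000 UMIs, at least 200 genes, at most 10% mitochondrial and at most 0.2% haemoglobin UMIs), and 4968 of these were stage I neutrophils. The libraries came from 2 control (Ctrl) mice and 2 mice after hindlimb unloading (HLU), in which suspension by the tail for 28 days takes the load off the hind limbs. All 4 mice were wild-type, and each gave 1 library, so the mouse is the replicate. Mice for unloading were C57BL/6J obtained at 8 weeks of age, whereas the series text dates the sequencing to postnatal day 28, and the strain, sex and age of these 4 mice are not stated apart from that. Tibiae and femurs were flushed before enzymatic digestion, so the neutrophils described here are those that remained with the bone and are not a sample of whole marrow.

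Neutrophils are made in the bone marrow in a fixed order of stages. Dividing progenitors first fill primary (azurophil) granules with myeloperoxidase and serine proteases, then, as myelocytes, switch to secondary (specific) granules that carry lactoferrin, cathelicidin and neutrophilic granule protein. Cells that have just left the cell cycle still transcribe the secondary granule genes, and these transcripts give way to those of gelatinase granules and surface receptors as the cell matures. Transcription of granule genes in this order depends on factors of the C/EBP family, among them C/EBPε.

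The rule rests on 3 genes of chromosome 9 (mm10): Ltf, encoding lactoferrin (chr9:111019271-111042767), Camp, encoding cathelicidin (chr9:109847379-109849617), and Ngp, encoding neutrophilic granule protein (chr9:110419747-110423012). Because C/EBP factors drive these genes, the letters TTGCNNAA, the core of a C/EBP site, were searched on both strands of the 300 bases around each RefSeq gene start (250 before and 50 after, GRCm38.p6). Of 32851 such windows 10.8% hold the letters. Counted by gene, 12.2% of all genes with a window have them, against 5 of the 13 such genes of the secondary granule list. The Ltf window (chr9:111019042-111019341, plus strand) holds 1 copy at 75 bases before the gene start, the Ngp window (chr9:110419558-110419857, plus strand) holds 2 copies at 138 and 11 bases before it, and the Camp window holds 0. The promoters of Ltf and Ngp are shown 5′ to 3′ because these genes define the cells, with the motif in capitals.
Ltf: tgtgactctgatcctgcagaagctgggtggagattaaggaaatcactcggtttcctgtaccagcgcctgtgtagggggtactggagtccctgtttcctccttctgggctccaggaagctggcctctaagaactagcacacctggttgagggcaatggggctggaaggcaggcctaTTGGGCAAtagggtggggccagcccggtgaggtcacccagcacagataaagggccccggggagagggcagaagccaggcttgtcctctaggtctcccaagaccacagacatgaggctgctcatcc
Ngp: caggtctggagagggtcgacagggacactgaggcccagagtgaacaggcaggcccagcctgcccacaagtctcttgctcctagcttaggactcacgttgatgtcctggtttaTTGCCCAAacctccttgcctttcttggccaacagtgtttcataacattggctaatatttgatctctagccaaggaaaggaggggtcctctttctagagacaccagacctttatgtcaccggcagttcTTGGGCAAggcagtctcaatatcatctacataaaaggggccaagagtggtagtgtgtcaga
A match describes letters in this window and is not evidence that a factor binds there.

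Stage I neutrophils numbered 668 in Ctrl replicate 1, 1061 in Ctrl replicate 2, 1768 in HLU replicate 1 and 1471 in HLU replicate 2, and all values below follow this order of libraries. Their UMIs sum to 4383163, 6366814, 11628365 and 12664393, with a median of 5603, 4977, 6072.5 and 7783 UMIs and 1489, 1416, 1619 and 1545 genes per cell. The median UMI count differed by 1637.75 between the groups, with HLU above Ctrl in both libraries, which an exact permutation test put at p = 0.333, a value that no comparison of 2 with 2 libraries can go below. Pairs of libraries shared at most 2 stage I barcodes.

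HLU replicate 2 stood apart from the other libraries. It held 99849070 UMIs in all, against 57925383, 61296053 and 47819046 in the others, and only 267 barcodes under 1000 UMIs against 2585, 2212 and 2143. In its stage I cells S100a8 and S100a9, which encode the calprotectin subunits, took 32.7% of UMIs, against 24.13%, 24.18% and 24.15%, and the median mitochondrial share was 0.485% against 1.05%, 0.998% and 0.980%. Medians over whole gene lists are therefore given with and without it, or by their range with each library left out.

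Transcripts of cartilage and bone-forming cells were the other difference between libraries. A set of 43 such genes (the cartilage list and the mesenchymal and osteoblast list) gave 0.524% and 0.782% of stage I UMIs in Ctrl and 0.0996% and 0.0181% in HLU. Cells of that kind were also far more frequent in Ctrl: barcodes with at least 5% of UMIs from these genes and under 1% from S100a8 and S100a9, called skeletal barcodes here, numbered 2858, 1985, 31 and 78. In barcodes under 1000 UMIs the same genes gave 6.73%, 5.67%, 0.451% and 0.268% of UMIs. Within skeletal barcodes, which were chosen by this share, it was 14.4%, 15.4%, 12.9% and 11.5%. Thus the skeletal share of stage I UMIs, that of barcodes under 1000 UMIs and the number of skeletal barcodes were all higher in Ctrl.

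The label was checked against genes the rule did not use. Ifitm6, an interferon-induced transmembrane protein gene of immature neutrophils, stood at an unscaled CPM (UMIs per 1000000 UMIs of the summed cells) of 1068, 1387, 1711 and 3579 in stage I, against 279, 435, 540 and 1560 in mature neutrophils (S100a8 and S100a9 at least 5% of UMIs, at least 3 UMIs of Csf3r, Cxcr2 and Mmp9, and secondary granule genes under 2%). Cd177, a neutrophil surface glycoprotein, stood at 345, 391, 492 and 747 in stage I and at 142, 176, 245 and 230 in mature cells. In the skeletal barcodes of the 4 libraries both were at 16.9 unscaled CPM or less. Both genes were thus higher in stage I than in mature neutrophils or skeletal barcodes in all 4 libraries, and the data do not go against the label of immature neutrophils. In dividing immature neutrophils Cd177 was at 340, 384, 466.5 and 569 unscaled CPM, close to its stage I level in the first 3 libraries, so it does not set stage I apart from them.

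Granulocytic cells of all stages line up by the classical order of granule genes, given here as unscaled CPM and without a test, since genes of this order chose the cells. Elane (neutrophil elastase, a primary granule protease) was at 11032, 11249, 9138 and 7936 unscaled CPM in progenitors (primary granule genes at least 1% of UMIs) and at 247, 134, 175 and 117 in stage I. Top2a (DNA topoisomerase II) was at 375, 409, 479 and 568 in dividing immature neutrophils, which pass the same limits but carry at least 3 UMIs of the division genes, and at 12.1, 14.3, 11.1 and 6.0 in stage I. Ltf was at 2411, 2490, 2880 and 1711 in the dividing cells, at 3781, 3940, 4359 and 3812 in stage I and at 259, 202, 306 and 122 in mature neutrophils. Ltf was thus higher in stage I than in dividing and mature cells in every library. Against mature cells this follows from the gates, since Ltf is a gene of the rule.

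Within stage I the share of Camp, Ngp and Ltf ran from the threshold of 2% to maxima of 17.8%, 19.9%, 19.6% and 22.0% of UMIs, with medians of 5.61%, 5.84%, 4.93% and 5.61%. Cells at 2 to 5% numbered 284, 451, 903 and 627, cells at 5 to 10% numbered 285, 471, 691 and 729, and cells at 10% or more numbered 99, 139, 174 and 115. The lowest range thus held 42.5%, 42.5%, 51.1% and 42.6% of members, most in HLU replicate 1. Next to the threshold, 63, 113, 236 and 178 barcodes lay just outside (1.5 to 2%) with median UMIs of 4310, 3117, 3316.5 and 6041.5, and 54, 96, 204 and 124 lay just inside (2 to 2.5%) with median UMIs of 3726.5, 2823, 3636.5 and 6238. In each library more barcodes thus lay just outside the threshold than just inside it.

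The 3 ranges differ in genes outside the rule, and for the 5 genes given here the order is the same in each library. Fcnb (ficolin B, made early in the neutrophil lineage) was at 366, 453, 356 and 844 unscaled CPM in cells at 10% or more, at 148, 191, 168 and 481 at 5 to 10%, and at 48.9, 78.5, 96.9 and 131 at 2 to 5%. Cebpe, encoding C/EBPε and chosen after its values were seen, was at 470, 486, 582 and 508 at 10% or more, at 336, 371, 438 and 354 at 5 to 10%, and at 195, 186, 253 and 109 at 2 to 5%. Both genes were lowest in the range nearest to mature cells. Mmp8, the neutrophil collagenase of specific granules, ran the other way, from 58.9, 121, 115 and 111 at 10% or more through 230, 326, 335 and 572 to 649, 796, 993 and 1506 at 2 to 5%, and on to 1753, 1807, 2452 and 2067 in mature cells. Retnlg (resistin-like gamma, a late neutrophil transcript) went from 2914, 4178, 3212 and 888 at 10% or more to 9740, 11612, 10441 and 7575 at 2 to 5%, and to 19422, 21566, 25957 and 9232 in mature cells. Il1b, the cytokine interleukin-1β, was at 6.93, 16.4, 7.62 and 6.99 at 10% or more, at 42.1, 57.2, 60.6 and 317 at 2 to 5% and at 598, 721, 603 and 2719 in mature cells. A high share of Camp, Ngp and Ltf thus went with early transcripts and a low share with late ones, although Mmp8 is itself a specific granule gene.

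**Figure D1:**
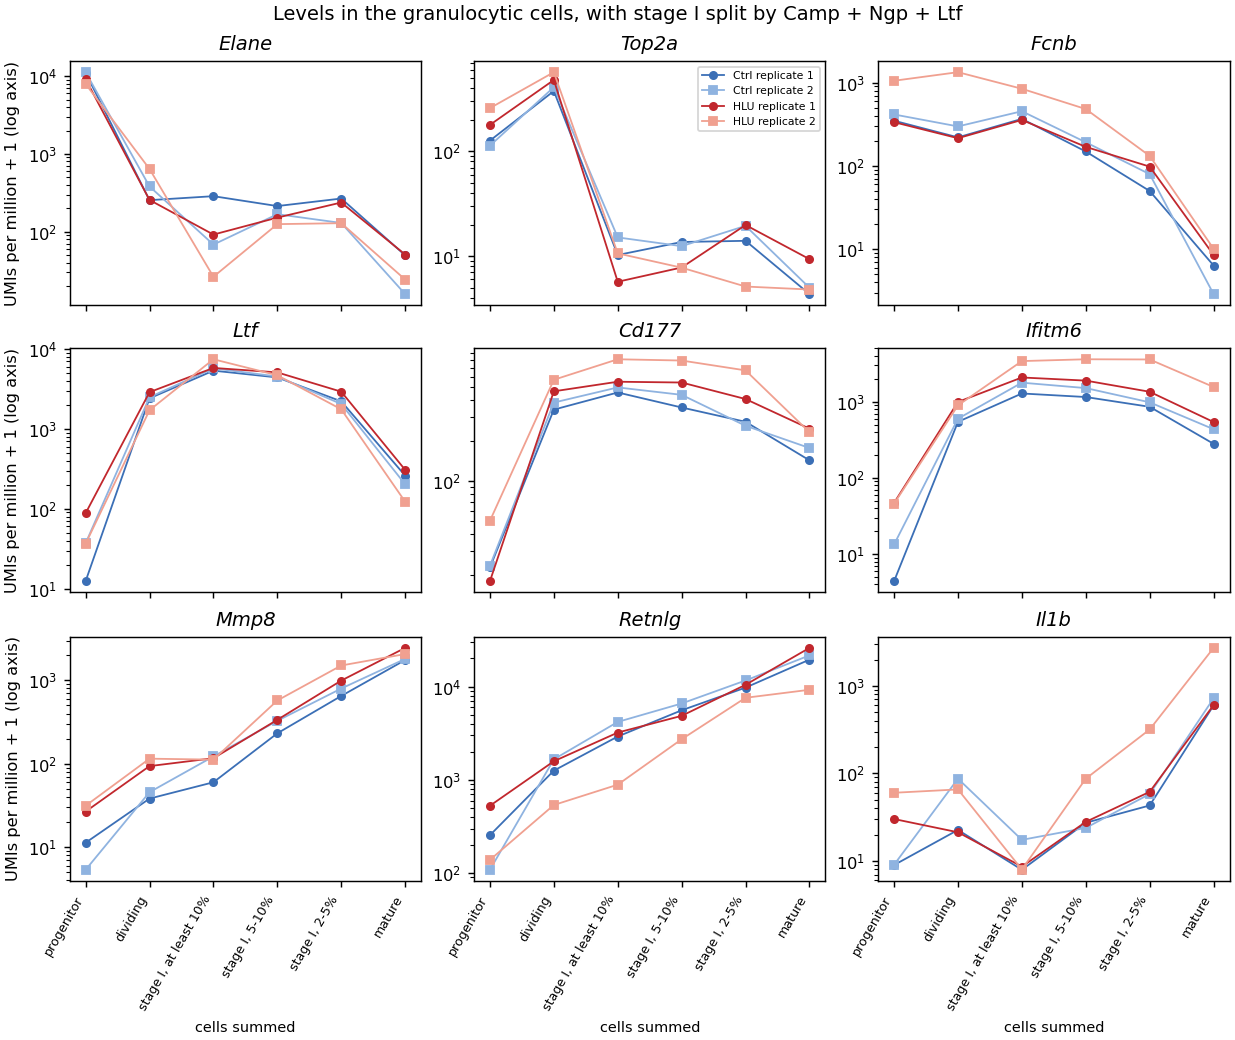
Levels of 9 genes (UMIs per 1000000 UMIs of the summed cells, plus 1, on log axes) in progenitors, dividing immature neutrophils, 3 ranges of stage I by their share of Camp, Ngp and Ltf, and mature neutrophils, with 1 line per library. Elane and Top2a drop before stage I, Ltf peaks in it, and Mmp8, Retnlg and Il1b are higher toward the mature cells in all 4 libraries.

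Stage I cells were compared between groups as a share of several populations. Of all filtered barcodes 9.14% and 14.2% were stage I neutrophils in the Ctrl libraries, against 23.4% and 16.5% in HLU (11.6% ± 3.55 against 19.9% ± 4.83, SD, n = 2 each), with 95% Clopper-Pearson intervals of 8.49 to 9.82%, 13.4 to 14.97%, 22.4 to 24.3% and 15.8 to 17.3% that cover counting error only. Both HLU libraries were above both Ctrl libraries, at p = 0.333 in the exact permutation test, its lower limit. This difference of 8.29 percentage points became -0.299 when barcodes with at least 1% of skeletal transcripts were left out of both counts. It thus depended on whether those barcodes were counted. That cut also applies to stage I barcodes, whose skeletal share was higher in Ctrl, and the cause of the difference was not tested.

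Within the granulocytic cells (progenitors, dividing, stage I and mature) the stage I share was 37.6% and 39.5% in Ctrl and 37.1% and 27.5% in HLU (38.5% ± 1.32 against 32.3% ± 6.79, SD, n = 2 each). The difference of -6.26 points gave p = 0.333 in the exact permutation test and was -1.45 without HLU replicate 2. There were 3.77 and 3.62 stage I cells per dividing cell in Ctrl and 4.42 and 1.55 in HLU (exact permutation p = 1). HLU replicate 1 lay above and HLU replicate 2 below both Ctrl libraries, and HLU replicate 2 held 948 dividing cells against 177, 293 and 400. The limit of 3 UMIs of division genes is a fixed count, which deeper cells reach more easily. HLU replicate 2 had the most UMIs per stage I cell (median 7783 against 5603, 4977 and 6072.5), and the part of depth in these measures was not tested. The difference between the group means was smaller than the spread between the 2 HLU mice in both measures.

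**Figure D2:**
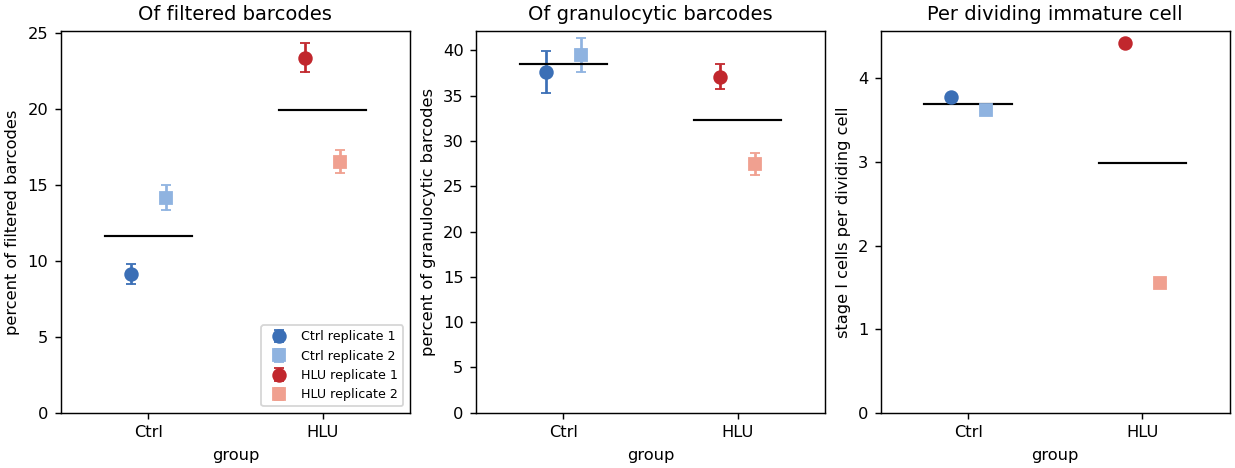
Stage I neutrophils as a percent of filtered barcodes, as a percent of granulocytic barcodes and per dividing immature cell, with 1 point per library, bars for 95% Clopper-Pearson intervals in the first 2 panels and lines for group means. The HLU libraries lie above Ctrl in the first panel, and HLU replicate 2 lies below the other 3 libraries in the remaining panels.

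Expression was compared between HLU and Ctrl on UMIs summed over the stage I cells of each library, by edgeR's quasi-likelihood test with Benjamini-Hochberg adjustment over all 10212 genes tested. Levels in this comparison are CPM on UMI totals scaled by TMM factors, and a gene is called at an adjusted p under 0.05. The TMM factors were 1.04, 1.07, 1.12 and 0.80, so scaling raised the levels of HLU replicate 2 and lowered those of the other libraries. In HLU 210 genes (2.06%) fell and 0 (0%) rose. The smallest adjusted p among genes higher in HLU was 0.0599 in edgeR, for Hba-a2, a haemoglobin gene that the filter on barcodes limits, 508 genes were higher at an unadjusted p under 0.05, and DESeq2 called 366 genes lower and 27 higher. The median log2 fold change was 0.04 over all genes tested and -4.75 over the called genes. With library totals in place of TMM factors the median of all genes moved to -0.10. The number of calls depended on single libraries: it was 37 without Ctrl replicate 2, 3392 (1783 lower and 1609 higher) without HLU replicate 1 and 673 (621 lower and 52 higher) without HLU replicate 2. With putative doublets removed it was 10.

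Nearly all genes that fell stood at higher levels in skeletal barcodes than in stage I cells. Of the 210 called genes, 205 (97.6%) were at least 3 times as high in the skeletal barcodes of Ctrl as in the stage I cells of Ctrl, against 22.9% of all genes tested, and the median ratio of the called genes was 19.4. The lists that chose the skeletal barcodes hold 17 of the called genes, so the ratios of these 17 are no independent result. Among them are Dcn, Clu, Col3a1, 1500015O10Rik, Cilp and Fmod of the 10 largest falls below. Dcn, encoding the matrix proteoglycan decorin, was at 1048 and 1430 CPM in Ctrl and 17.3 and 10.2 CPM in HLU, so its log2 fold change was -6.49 (SE 0.50, adjusted p = 0.00513 in edgeR). Clu (clusterin) was at 359 and 438 CPM in Ctrl and 2.92 and 2.46 in HLU (log2 fold change -7.20). Col3a1 (type III collagen) was at 9.64 and 32.8 CPM in Ctrl and had 0 UMIs in both HLU libraries, at least 163.8-fold lower against a floor of 3 counts over the group. The other 7 of the 10 largest falls were 1500015O10Rik (augurin), Thbs4, Cilp, Sod3, Ndufa4l2, Htra1 and Fmod, whose levels in skeletal barcodes were 15.03 (Thbs4) to 31.1 (Sod3) times those in stage I cells. All 10 met the limit of 20 CPM for naming through Ctrl alone. Col3a1, Thbs4, Cilp, Sod3, Ndufa4l2, Htra1 and Fmod also met the filter on low counts through Ctrl alone, so their calls are not independent of that filter. Of the 210 called genes, 49 had at least 10 counts in every library. Without the genes at 3-fold or more, chosen after the calls were seen, 7853 genes were tested with 0 (0%) called in edgeR and 619 at an unadjusted p under 0.05, while DESeq2 in its fit of all genes called 56 genes under 3-fold, 31 of them lower.

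Skeletal transcripts were spread unevenly over the ranges of stage I. In Ctrl they gave 0.928% and 1.55% of UMIs in cells at 2 to 5% of Camp, Ngp and Ltf, 0.337% and 0.474% at 5 to 10%, and 0.179% and 0.227% at 10% or more. In HLU the same ranges held 0.208% and 0.0369%, 0.0381% and 0.00653%, and 0.0126% and 0.00542%. Mature neutrophils of the 4 libraries carried 1.38%, 1.25%, 0.0737% and 0.103%. The skeletal share was higher in Ctrl than in HLU in every range, and it was lowest in the cells richest in secondary granule transcripts. Those cells also had the most UMIs. From 2 to 5% through 5 to 10% to 10% or more, the median was 4596.5, 5910 and 9546 in Ctrl replicate 1. It was 3928, 5396 and 9461 in Ctrl replicate 2, 4297, 7540 and 9918.5 in HLU replicate 1 and 6879, 8315 and 9745 in HLU replicate 2. The part of depth in the order of these shares was not tested. The part of free RNA, of mixed droplets and of transcription in the neutrophils themselves in these values was not tested.

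**Figure D3:**
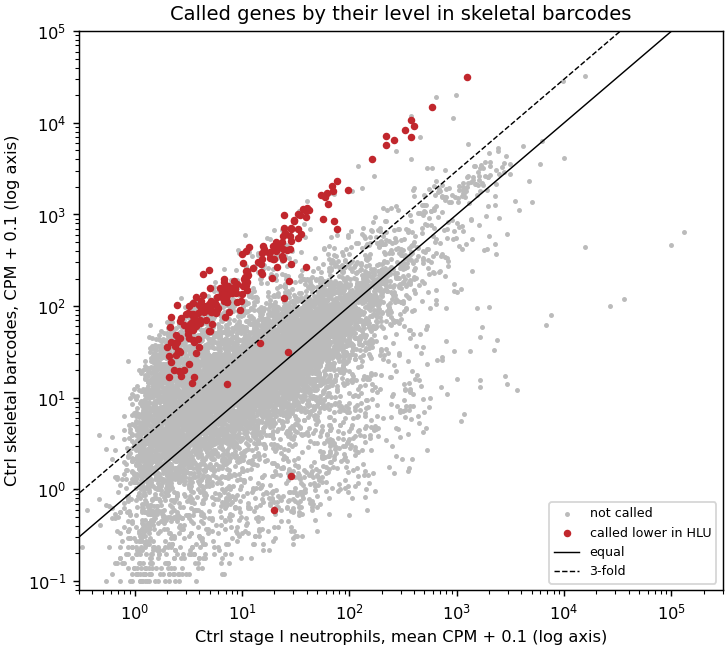
Each of the 10212 genes tested by its mean level in Ctrl stage I neutrophils (CPM, x axis) and in Ctrl skeletal barcodes (CPM, y axis), plus 0.1 on log axes, with called genes in red. Of the 210 called genes, 205 are at least 3-fold higher in skeletal barcodes (dashed line), and 17 are on the lists that chose those barcodes.

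Only 5 called genes were under 3-fold in skeletal barcodes, and they are named here after their values were seen. Tnfrsf18, which encodes the tumour necrosis factor receptor GITR (chr4:156026164-156028895), was at 19.7 and 19.5 CPM in Ctrl and 4.99 and 4.24 CPM in HLU, which gave -2.08 ± 0.33 (SE) for its log2 fold change (adjusted p = 0.0300 in edgeR). It rests on 90, 132, 65 and 43 UMIs, its ratio of skeletal to stage I level was 0.0255, and its call was lost when either Ctrl library was left out. Rhov, a small GTPase gene (chr2:119269201-119271272), was at 14.5 and 42.7 CPM in Ctrl and 2.69 and 3.55 in HLU (log2 fold change -3.20, adjusted p = 0.0400 in edgeR, ratio 0.0458), and its call was lost without Ctrl replicate 2. None of the 5 was called with putative doublets removed or with at least 10 counts in every library. The groups did not overlap in either gene, and both were far lower in skeletal barcodes than in stage I cells. The other 3 were Bex3, Tppp3 and Ly6a (Sca-1, a surface protein of stem cells), with ratios of 1.17, 1.95 and 2.67. Tppp3 had 1 UMI in each HLU library and met the filter on low counts through Ctrl alone.

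The granule genes, the substance of this stage, did not pass the test as a rule. In the secondary granule list 14 of 15 genes were tested, 11 of them not used by the rule. Of these 11, 10 had a log2 fold change above 0 and 1, Ptx3, fell (beside 2.06% of all genes). The median was 0.73 (0.035 without HLU replicate 2 and 1.27 without HLU replicate 1). In 4 of the 11 both HLU libraries were above both Ctrl libraries and in 1 both were below, beside 24.3% and 22.5% of all genes tested. Camp was at 25216, 28003, 24168 and 38361 CPM, Ngp at 36974, 34627, 29943 and 34325 CPM and Ltf at 3629, 3704, 3894 and 4757 CPM, so the groups overlapped in Camp and lay narrowly apart in Ngp (HLU lower) and Ltf (HLU higher). The separation in Ltf depended on the TMM factors, since the groups overlapped in its unscaled CPM. These 3 genes chose the cells and get no test. Lcn2, encoding the siderophore-binding protein lipocalin 2, was at 8833 and 11161 CPM in Ctrl and 7783 and 27533 in HLU, high in HLU replicate 2 alone. Mmp8 was at 337 and 415 CPM in Ctrl and 496 and 1109 in HLU (log2 fold change 1.09, adjusted p = 0.367, edgeR), and Cd177 at 331, 367, 440 and 932 CPM. Both HLU libraries were above Ctrl in Mmp8 and Cd177, and HLU replicate 2 gave most of the difference. Ptx3, encoding pentraxin 3, was at 1.75 and 4.87 CPM in Ctrl and 0.0768 and 0 in HLU (adjusted p = 0.0400, edgeR), from 8, 33, 1 and 0 UMIs, and was 4.30 times as high in skeletal barcodes. With these counts it met the filter on low counts through Ctrl alone, so its call is not independent of that filter.

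Gelatinase granule genes, which follow the specific granule genes in maturation, had 6 of 7 log2 fold changes above 0 and 0 calls, with both HLU libraries above Ctrl in 5 and below it in 1 (beside 24.3% and 22.5% of all genes) and a median of 0.72 (0.25 without HLU replicate 2). Mmp9, the gelatinase itself, was at 479 and 575 CPM in Ctrl and 921 and 1007 CPM in HLU, which gave 0.87 ± 0.33 (SE) for its log2 fold change (adjusted p = 0.334 in edgeR). The 2 HLU libraries were close to each other and above both Ctrl libraries. Itgam and Itgb2, the chains of the integrin Mac-1, were at 379, 404, 540 and 751 CPM and at 319, 338, 409 and 614 CPM.

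Adhesion and homing genes, which hold neutrophils in the marrow or let them leave it, gave a median of 0.72 over 12 tested genes (0.34 without HLU replicate 2), and 0 were called. In 10 of the 12 both HLU libraries were above both Ctrl libraries and in 1 both were below, beside 24.3% and 22.5% among all genes. Itgal, the αL chain of the integrin LFA-1, was at 38.5 and 52.4 CPM in Ctrl and 85.0 and 100.5 CPM in HLU (log2 fold change 1.03, adjusted p = 0.229, edgeR). Ceacam1, an adhesion receptor, was at 110, 87.0, 158 and 174 CPM. The HLU libraries lay near each other in these 2 genes. The chemokine receptor Cxcr4, which retains neutrophils in marrow and is named here after its values were seen, was at 84.6 and 114 unscaled CPM in Ctrl and at 193 and 28.3 in HLU, so the HLU mice fell on either side of Ctrl.

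Genes of the NADPH oxidase, the enzyme of the respiratory burst, all had log2 fold changes above 0 (6 of 6 tested, 0 called), 4 of them with both HLU libraries above Ctrl (beside 24.3% of all genes), with a median of 0.72 and 0.18 without HLU replicate 2. Cybb, the catalytic subunit gp91phox (chrX:9435252-9487771), was at 515 and 613 CPM in Ctrl and 905 and 1895 CPM in HLU, which gave 1.31 ± 0.44 (SE) for its log2 fold change (adjusted p = 0.275 in edgeR). Cyba, its membrane partner p22phox, was at 1573, 1484, 1525 and 3905 CPM. Cybb was thus above Ctrl in both HLU mice, and Cyba in HLU replicate 2 alone.

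Receptors for colony-stimulating factors, which sustain granulopoiesis, were above 0 in 6 of 6 tested genes other than Csf1r, which the rule limits, with 4 apart (beside 24.3% of all genes), 0 called and a median of 0.83 (0.13 without HLU replicate 2). Csf3r, the receptor of granulocyte colony-stimulating factor, was at 102 and 135 CPM in Ctrl and 188 and 208 CPM in HLU. Csf2rb, the common β chain, was at 35.3, 34.9, 42.1 and 213 CPM. The first was higher in both HLU mice and the second mainly in HLU replicate 2.

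The stefin A cluster, the interferon-stimulated genes, S100a8 and S100a9 were also high mainly in HLU replicate 2. The stefin A genes, cysteine protease inhibitors of chromosome 16, summed to 275 and 250 CPM in Ctrl and 316 and 2221 CPM in HLU, and their median log2 fold change of 2.74 over 8 tested genes was 0.20 without that library. Interferon-stimulated genes summed to 2459, 3029, 3095 and 8543 CPM (18 of 21 above 0, 0 called, median 0.84, 0.064 without HLU replicate 2), with 8 apart higher and 1 apart lower beside 24.3% and 22.5% of all genes. S100a8 was at 98829, 99248, 97020 and 178500 CPM and S100a9 at 132830, 128116, 118718 and 229661 CPM. HLU replicate 1 was near the Ctrl level in the stefin A sum, S100a8 and S100a9. In 5 of the 8 stefin A genes (beside 24.3% of all genes) both HLU libraries were nonetheless above both Ctrl libraries, as in BC100530 at 37.5, 30.1, 73.2 and 490.5 CPM. Of the 8 tested S100 genes, 2 were apart higher and 2 apart lower (beside 24.3% and 22.5% of all genes), and 4 were at 3-fold or more in skeletal barcodes. The 1 called (beside 2.06% of all genes) was S100a10, encoding an annexin A2 partner. It was at 47.7, 64.8, 15.4 and 7.88 CPM (log2 fold change -2.27, adjusted p = 0.0429 in edgeR) and 15.8 times as high in skeletal barcodes. S100a4 was also lower in both HLU libraries (32.9, 19.8, 9.53 and 5.72 CPM).

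Hypoxia-inducible factors bind DNA when oxygen is low and induce a known set of genes. All 18 tested genes of this list had log2 fold changes below 0, both HLU libraries were below both Ctrl libraries in 15, beside 22.5% of all genes, and 0 passed the test (smallest adjusted p 0.0616, edgeR). Their summed level was 2746 and 4090 CPM in Ctrl and 2037 and 479 CPM in HLU, with a median log2 fold change of -1.79, -0.94 without HLU replicate 2 and -4.12 without HLU replicate 1. The order of the libraries was the same on both sides, but the size depended on single libraries, as the median was also -1.33 without Ctrl replicate 2. Ero1l, an oxidase of the endoplasmic reticulum (chr14:45283087-45318771) and the most abundant of the list, was at 756 and 1356 CPM in Ctrl and 507 and 93.3 CPM in HLU, which gave -1.81 ± 0.75 (SE) for its log2 fold change (adjusted p = 0.368 in edgeR). Bnip3, a receptor for mitophagy (chr7:138890836-138909519), was at 319, 464, 264 and 12.5 CPM. Ddit4, an inhibitor of mTORC1, was at 36.4 and 70.7 CPM in Ctrl and 17.7 and 9.26 CPM in HLU (log2 fold change -1.99, adjusted p = 0.101, edgeR). Of the 18, 7 were at 3-fold or more in skeletal barcodes, among them P4ha2 and Adm, and over the other 11 the median was -1.53 with 8 apart lower.

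The letters ACGTG, the core of the hypoxia response element, were searched in the same windows on both strands. They are in 19.6% of all windows and, counted by gene, in 21.8% of all genes with a window, in 14 of 16 genes of this list with a window and in 13 of 19 genes of glycolysis. The promoters of Ero1l (RefSeq Ero1a, chr14:45318523-45318822, minus strand, 1 copy at 63 bases before the start), Bnip3 (chr7:138909457-138909756, minus strand, 2 overlapping copies on opposite strands at 108 and 107 bases before the start) and Ddit4 (chr10:59951721-59952020, minus strand, 1 copy at 187 bases before the start) are shown 5′ to 3′ for the genes of the list named above, with the motif of either strand in capitals (GRCm38.p6).
Ero1l: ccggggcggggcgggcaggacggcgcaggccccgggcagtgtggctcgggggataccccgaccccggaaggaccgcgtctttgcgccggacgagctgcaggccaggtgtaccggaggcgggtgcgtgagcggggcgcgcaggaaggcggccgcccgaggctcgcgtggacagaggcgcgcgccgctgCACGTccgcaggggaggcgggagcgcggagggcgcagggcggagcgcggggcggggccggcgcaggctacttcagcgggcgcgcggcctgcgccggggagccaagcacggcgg
Bnip3: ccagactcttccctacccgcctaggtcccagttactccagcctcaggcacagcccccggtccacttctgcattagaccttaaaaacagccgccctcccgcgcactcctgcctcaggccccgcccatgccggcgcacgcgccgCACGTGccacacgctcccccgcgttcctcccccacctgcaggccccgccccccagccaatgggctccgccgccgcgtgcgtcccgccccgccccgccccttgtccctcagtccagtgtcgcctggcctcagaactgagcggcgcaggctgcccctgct
Ddit4: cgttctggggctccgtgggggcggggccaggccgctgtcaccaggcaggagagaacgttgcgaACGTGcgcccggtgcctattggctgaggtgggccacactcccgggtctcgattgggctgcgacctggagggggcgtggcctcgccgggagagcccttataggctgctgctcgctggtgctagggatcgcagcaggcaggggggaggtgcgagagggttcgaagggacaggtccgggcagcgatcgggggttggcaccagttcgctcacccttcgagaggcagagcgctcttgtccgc
These lists were drawn up from known targets, so many matches are no independent result.

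Glycolysis genes followed the same order of libraries. Of 19 tested, 17 had log2 fold changes below 0, 16 were apart with HLU lower and 2 with HLU higher (beside 22.5% and 24.3% of all genes), and 0 were called, with a median of -0.86 (-0.42 without HLU replicate 2 and -1.59 without HLU replicate 1) and a summed level of 21376, 22730, 17407 and 6359 CPM. Gapdh was at 5972 and 5878 CPM in Ctrl and 4530 and 1969 CPM in HLU (log2 fold change -0.87, adjusted p = 0.470, edgeR). Aldoa (aldolase A) was at 3797, 3839, 3274 and 816 CPM, and the glucose transporter Slc2a3 at 527, 917, 448 and 230 CPM. HLU replicate 1 lay slightly and HLU replicate 2 far below Ctrl in these genes. Pfkfb4, a regulator of glycolytic flux, ran against the list at 21.2, 25.8, 29.0 and 75.1 CPM. The genes of oxidative phosphorylation had a median of 0.010 over 94 tested (-0.14 to 0.11 with each library left out). In 12 both HLU libraries were above Ctrl and in 18 below, beside 24.3% and 22.5% of all genes. Of the 94, 2 were called lower, beside 2.06% of all genes. They were Cox4i2 and Ndufa4l2, which were 19.4 and 24.1 times as high in skeletal barcodes.

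Within the ranges of stage I both HLU libraries stayed below both Ctrl libraries in these sums, except for glycolysis at 10% or more, where HLU replicate 1 lay between the Ctrl libraries. In cells at 5 to 10% of Camp, Ngp and Ltf, hypoxia-inducible factor targets summed to 3121, 4227, 1947 and 397 unscaled CPM, and at 10% or more to 1284, 2239, 1243 and 370. Glycolysis genes summed to 15572, 18441, 15826 and 4809 at 10% or more and to 23652, 26232, 21804 and 5187 at 2 to 5%. Mature cells carried 4646, 6075, 3415 and 459 unscaled CPM of the first list and 26089, 28431, 22603 and 5468 of the second. From the cells at 10% or more to the mature cells both sums were higher at the late end in the first 3 libraries, and HLU replicate 2 showed little such gradient. The order of libraries was also seen outside neutrophils: hypoxia-inducible factor targets summed to 4893, 6336, 2401 and 1587 unscaled CPM in skeletal barcodes and to 4376, 5669, 2712 and 670 in barcodes under 1000 UMIs. Glycolysis genes kept this order in skeletal barcodes (9982.5, 14136, 7601 and 4487 unscaled CPM), while in barcodes under 1000 UMIs (15241, 17480, 16244 and 3933) HLU replicate 1 lay between the Ctrl libraries. The part of a difference between whole libraries in the stage I values was not tested.

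**Figure D4:**
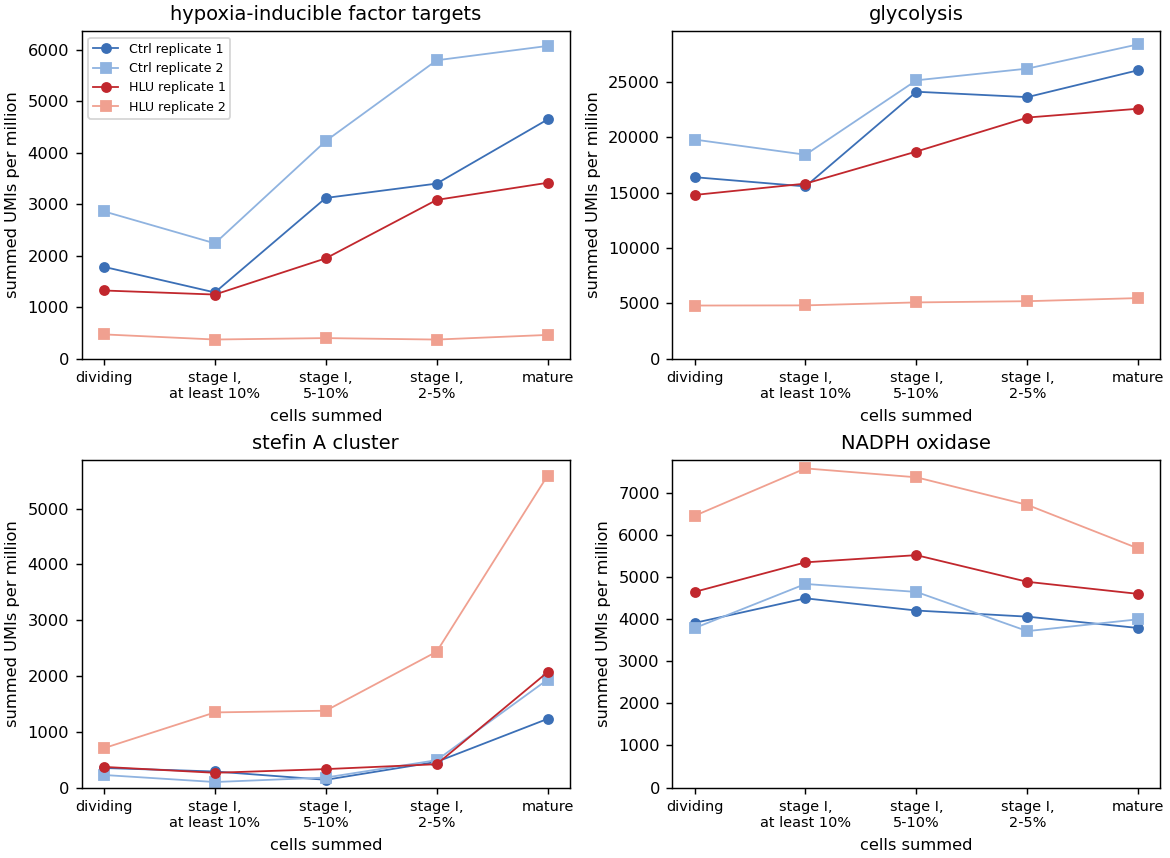
Summed levels (UMIs per 1000000 UMIs of the summed cells) of 4 gene lists in dividing, stage I (3 ranges) and mature neutrophils, with 1 line per library. Hypoxia-inducible factor targets and glycolysis genes are lowest in HLU replicate 2 at each stage, where the stefin A and NADPH oxidase genes are highest.

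Of the immediate early, heat shock and dissociation genes 1 was called lower, beside 2.06% of all genes. Immediate early genes, transcribed within minutes of a stimulus, were below 0 in 18 of 18 tested (15 apart lower beside 22.5% of all genes, median -0.84, -0.79 without HLU replicate 2 and -1.315 without HLU replicate 1), with sums of 2929 and 3979 CPM in Ctrl and 2246 and 1783 CPM in HLU. Fos was at 396 and 584 CPM in Ctrl and 324 and 206 in HLU, and the list's 1 called gene, Atf3, at 19.9 and 34.1 CPM in Ctrl and 4.92 and 3.15 in HLU (log2 fold change -2.74, adjusted p = 0.0288 in edgeR, 6.90 times as high in skeletal barcodes). Heat shock genes were below 0 in 12 of 12 (6 apart lower beside 22.5% of all genes, median -1.44, -1.005 without HLU replicate 2, -0.52 without Ctrl replicate 1 and -2.12 without Ctrl replicate 2), and Hspa1a, the inducible HSP70, was at 1965, 337, 180 and 5.42 CPM, so that Ctrl replicate 1 stood far above the rest. A list of 18 genes known to be induced by tissue dissociation, which overlaps both, was below 0 in 17, with sums of 6914, 4499, 2890 and 1685 CPM. The order of that sum, Ctrl above HLU and HLU replicate 2 lowest, is also that of the sums of glycolysis genes and hypoxia-inducible factor targets, and its part in them was not tested.

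Among glucocorticoid-responsive genes, of interest because suspension can act as a stressor, 11 of 13 were below 0 (10 apart lower and 1 apart higher beside 22.5% and 24.3% of all genes, median -1.75, -0.91 without HLU replicate 2 and also without Ctrl replicate 2). Errfi1, a feedback inhibitor of the EGF receptor (chr4:150853919-150868892), fell from 56.7 and 86.3 CPM in Ctrl to 3.46 and 3.25 CPM in HLU, which gave -4.41 ± 0.37 (SE) for its log2 fold change (adjusted p = 0.00513 in edgeR), and was 11.8 times as high in skeletal barcodes. Over the 7 genes of the list under 3-fold in skeletal barcodes the median was -0.49. Il1r2, the decoy receptor of interleukin-1 and a neutrophil transcript, was at 155 and 161 CPM in Ctrl and 107 and 118 CPM in HLU. The secretory pathway list was below 0 in 20 of 22 genes (12 apart lower beside 22.5% of all genes, 0 called, median -0.44, -0.59 without HLU replicate 2 and -0.68 without Ctrl replicate 1). Of its genes 11 were at 3-fold or more in skeletal barcodes, and over the other 11 the median was -0.53 with 7 apart lower.

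Since no gene rose past the test in edgeR, the 10 genes of smallest p among those higher in both HLU libraries at 20 CPM or more are given as values. They were Hbb-bs, Aatk, Megf9, Amer2, Prom1, Mfsd6, Trpm2, Mpeg1, Prkcb and Plekhg1, with adjusted p from 0.0681 to 0.142 in edgeR. Of these, Hbb-bs, Aatk, Amer2, Prom1 and Plekhg1 met the limit of 20 CPM through HLU alone. Their Ctrl means were 17.9, 9.40, 9.99, 9.28 and 8.41 CPM. In DESeq2 7 of the 10 passed, but the genes were chosen by their p, so that count is no further support. Hbb-bs encodes a haemoglobin chain, and the filter on barcodes limits its level. Megf9 was at 24.3 and 23.8 CPM in Ctrl and 50.9 and 63.5 CPM in HLU (log2 fold change 1.25). Prkcb, protein kinase C beta, was at 44.7 and 41.8 CPM in Ctrl and 89.1 and 95.3 in HLU (log2 fold change 1.09). Mpeg1, encoding the pore-forming perforin-2, was at 53.7, 30.9, 101 and 332 CPM, and Trpm2, an oxidant-sensing calcium channel, at 21.2, 24.5, 45.3 and 89.9 CPM. Megf9 and Prkcb were about equally high in both HLU mice, while Mpeg1 was highest in HLU replicate 2.

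**Figure D5:**
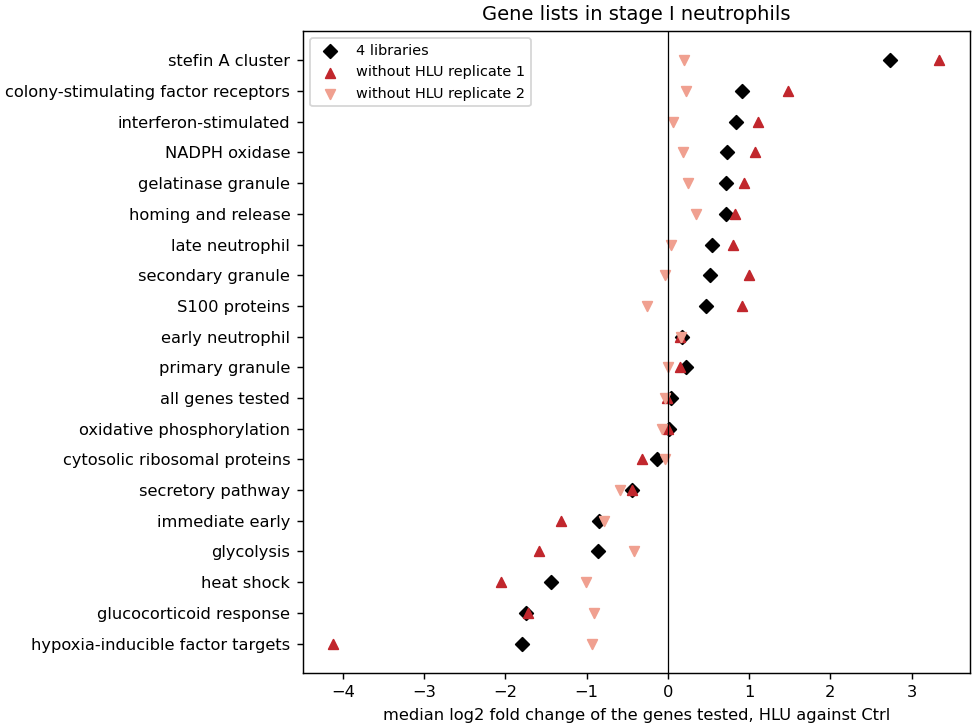
Median log2 fold change (HLU against Ctrl) of the tested genes of each list in stage I neutrophils, with all 4 libraries and without either HLU library, genes that the rule uses included. Hypoxia-inducible factor targets have a median of -1.79 and the stefin A cluster of 2.74, and the second is 0.20 without HLU replicate 2.

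Apoptosis, which the study examined in bone under unloading, gave no one-sided pattern in these cells. Anti-apoptotic genes had a median of 0.25 over 13 tested (5 apart higher and 4 apart lower beside 24.3% and 22.5% of all genes), which ranged from 0.13 (without HLU replicate 2) to 0.60 (without Ctrl replicate 2) with each library left out. Pro-apoptotic genes had a median of 0.43 over 17 (7 apart higher, 5 apart lower, beside the same shares), which was 0.031 without HLU replicate 2 and 0.16 without Ctrl replicate 2. In both lists 0 were called, and the order of their medians depended on single libraries. Xiap, the inhibitor of caspases, was at 26.1 and 23.6 CPM in Ctrl and 36.6 and 64.5 CPM in HLU (log2 fold change 1.02, adjusted p = 0.291, edgeR). Mcl1, on which neutrophil survival depends, was at 611 and 740 CPM in Ctrl and 504 and 192 CPM in HLU (log2 fold change -0.96, adjusted p = 0.451, edgeR). The groups did not overlap in either gene, and the directions were opposite. Without HLU replicate 2 the log2 fold changes were 0.52 for Xiap and -0.47 for Mcl1, and without HLU replicate 1 they were 1.38 and -1.81.

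Whether the change between groups differed between stage I and mature neutrophils was tested by the interaction of stage and group in edgeR, with library as a block. Of 10649 genes 1 (0.00939%) was called and 429 had an unadjusted p under 0.05. This gene, Col10a1, encodes the type X collagen of hypertrophic cartilage. It fell by less in stage I (60.9, 92.6, 8.84 and 6.998 CPM, log2 fold change -3.27) than in mature cells (log2 fold change -7.80), and was 29.9 times as high in skeletal barcodes as in stage I. Of the 5 genes of smallest p with at least 20 CPM in both stages, the neutrophil transcript was Gadd45a, a growth arrest gene, at 428, 650, 281 and 125 CPM in stage I (log2 fold change -1.41) and 319, 395, 391 and 273 CPM in mature cells (-0.10), with an adjusted p of 0.659 in edgeR. The other 4 (Col10a1, Prg4, Lbp and Cytl1) were at 7.81 (Lbp) to 30.2 (Prg4) times their stage I level in skeletal barcodes. Col10a1, Prg4 and Cytl1 are on the cartilage list, which helped to choose those barcodes, so their ratios are no independent result.

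Marker lists of other cell types were summed in the same way. Monocyte and macrophage markers, 3 of which the rule limits, summed to 85.6, 93.9, 95.04 and 142 CPM over 9 tested genes (Cd68 highest), and C1qb was at 0. B cell markers summed to 42.1, 126, 223 and 83.4 CPM (Igkc highest), T and NK cell markers to 25.6, 20.2, 18.3 and 15.8 CPM (3 of 13 listed genes tested, Nkg7 highest), and dendritic cell markers to 32.6, 62.9, 69.4 and 57.4 CPM (Cd74 highest) with Cd209a at 0. The groups overlapped in the B cell and dendritic cell sums, while the T and NK cell sum, mostly Nkg7, was lower in both HLU libraries. Of the 3 tested T and NK cell genes, however, 2 had a log2 fold change above 0. In that list 1 gene was apart higher and 1 apart lower (beside 24.3% and 22.5% of all genes), so the sum does not speak for the list. The monocyte and macrophage sum was higher in both, but it includes the genes that the rule limits, so it does not compare the groups. Of the 6 tested genes of that list outside the rule, 0 were apart higher and 2 apart lower (beside 24.3% and 22.5% of all genes). Erythroid markers summed to 32.6 and 25.4 CPM in Ctrl and 80.1 and 108 CPM in HLU, led by Hbb-bs, within the limit on haemoglobin that the rule sets. Car1 and Rhd were at 0. Only 1 of the 5 tested genes lies outside the rule's haemoglobin limit, so no count beside all genes is given. Of the megakaryocyte list 1 gene was tested (Pf4, 14.2, 2.07, 9.07 and 2.56 CPM, with Tubb1 at 0), and of the basophil list 1 (Hdc, 507, 528, 416 and 281 CPM, a gene that neutrophils also transcribe, with Cma1 at 0). Cartilage markers summed to 2201, 3369, 147 and 70.3 CPM (10 of 18 called lower beside 2.06% of all genes, Prg4 highest) and mesenchymal and osteoblast markers to 2826, 3971, 742 and 155 CPM (7 of 20 called lower beside the same share, Dcn highest), and of the marker lists these 2 held called genes.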

How the data were processed

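For each of 4 libraries (10x Genomics 3′ kit) the authors deposited raw counts of UMIs per gene and barcode, not normalized, which they had made with Cell Ranger 6.0.0 and the mm10 reference. The submitters' processing notes also name Seurat 4.1.0, and no cell annotation was used here. The cells and the gene lists were chosen with earlier results of these data known. Barcodes were filtered and gated as the report states with Python 3.11.15, numpy 2.4.6, pandas 2.3.3 and scanpy 1.11.5, whose Scrublet marked 6.14%, 9.80%, 7.92% and 8.91% of stage I barcodes as doublets, which were kept in the main result.

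Counts of stage I cells were summed per library, and edgeR 4.0.16 under R 4.3.3 gave the quasi-likelihood test (its filter on low counts, TMM factors), and the stage by group test used sums of stage I and mature cells with library as a block. For shares per library the exact permutation test of scipy 1.17.1 was used, two-sided. Skeletal barcodes were defined after the calls were seen. Named genes were the genes of the gate and the markers, the 10 largest falls and 10 rises at 20 CPM or more with groups apart, 3 genes of highest CPM and 3 of smallest p from each list described, and the 5 of smallest p in the stage by group test. Some of these are given as counts only, and exceptions are marked. Gene positions are from GENCODE M21 on mm10 and promoters from RefSeq.

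On simulated counts of 9835 genes for the stage I comparison edgeR recovered 8 of 68 genes changed by 1 log2 unit, 54 of 66 changed by 2 and 66 of 66 changed by 4, with 11 false calls. For stage by group (10109 genes) it recovered 0 of 68, 16 of 66 and 63 of 66, with 2 false calls. The alternatives were DESeq2 1.42.0, other normalizations and filters on low counts, the replicate number as a block, other limits on the members, doublets removed, cells thinned to 1000 UMIs, 668 cells drawn per library, listed genes of other cells left out, each library left out, and, both chosen after seeing the data, genes at 3-fold in skeletal barcodes left out and the rule's own genes left out of the lists.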

Additional observations from a re-analysis of the deposited data

Results flagged for a closer look

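Col10a1, the type X collagen gene of cartilage, was flagged because its change between groups differed between stages in edgeR's test of stage by group. The log2 change in stage I minus that in mature neutrophils was 4.44 ± 0.38 (SE, adjusted p = 0.0115 over all genes, edgeR), and at either stage the 2 HLU libraries were below the 2 Ctrl libraries. Its level in mature neutrophils was 86.3 and 165 CPM in Ctrl and 0.771 and 0.323 CPM in HLU. With at least 10 counts in every sum 0 genes were called, and the setting without listed genes of other cell types leaves this gene out. No group had enough libraries for a test of outlying samples.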

How the results depend on the processing

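With 2 libraries per group the shares could not reach an exact permutation p under 0.333, and most changes of 1 log2 unit were not recovered in the simulated counts. Not every setting could test all 210 called genes, and with at least 10 counts in every library 49 of them could be tested. Those that a setting could test were lower in HLU in every alternative run, while the number of calls moved. It was 393 with DESeq2 (366 lower, 27 higher), 1111 with no filter on low counts (773 lower, 338 higher), 25 with at least 10 counts in every library, 392 with Camp, Ngp and Ltf at 1% or more, 10 with doublets removed, 64 with cells thinned to 1000 UMIs and 0 without the genes at 3-fold or more in skeletal barcodes. With each library left out it ranged from 37 (without Ctrl replicate 2) to 3392 (without HLU replicate 1). The replicate numbers share only a number: the deviations of same-numbered libraries correlated at r = 0.00632 over 3862 genes, and the fit with the replicate block called 364 genes (343 lower, 21 higher).

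The log2 fold change of Tnfrsf18 also lost its call with library totals (-2.20), with at least 10 counts in every library (-2.12), with doublets removed (-2.07) and with thinned cells (-1.73). The log2 fold change of Rhov lost its call with at least 10 counts in every library (-3.25) and with doublets removed (-3.18). Stage by group gave 103 calls with no filter, 0 with at least 10 counts in every sum, 5 with DESeq2, 2 with mature cells at 10% or more of S100a8 and S100a9, 0 with genes of other cells left out, and 1 to 187 with each library left out. The difference in the share of filtered barcodes was -0.299 points without barcodes of 1% or more skeletal transcripts, and that in stage I cells per dividing cell ranged from -2.15 to 0.722 (without HLU replicate 2).

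Log2 fold changes that changed sign without HLU replicate 2, by their range over the main fit and all alternatives, included those of Lcn2 (-0.41 to 1.46), Slc11a1 (-0.022 to 2.54), Wfdc21 (-0.028 to 1.29), Fcnb (-0.23 to 1.47), Serpinb1a (-0.018 to 1.10), Cyba (-0.049 to 1.36), S100a9 (-0.18 to 0.82), S100a8 (-0.075 to 0.85), Stfa1 (-0.43 to 2.43), Ifitm2 (-0.010 to 1.82), Ifitm3 (-0.15 to 0.55), Cebpd (-0.40 to 0.058), Mxd1 (-0.0080 to 1.09), Spi1 (-0.0095 to 0.51) and Cflar (-0.084 to 0.29). That of Hsp90ab1 changed without Ctrl replicate 1 (-1.04 to 0.029). Cflar was also at -0.026 with library totals, -0.014 with cells at 5 to 10% and -0.068 with thinned cells, and Bax at -0.015 with library totals. The cause of these changes was not tested.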

Other observations

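Genes of iron handling summed to 37956 and 37793 CPM in Ctrl and 30029 and 81458 CPM in HLU stage I neutrophils, with 0 of 12 tested genes other than Ltf called in edgeR and a median log2 fold change of 0.45 (-0.061 without HLU replicate 2 and 0.72 without HLU replicate 1). Fth1, the ferritin heavy chain, was at 15815, 15209, 9270 and 27817 CPM, and Ftl1, the light chain, at 7108, 5309, 6493 and 17750 CPM. HLU replicate 2 was above the other 3 libraries in both, and HLU replicate 1 was the lowest of the 4 in Fth1. NF-kB and inflammatory genes had a median of 0.14 over 23 tested genes (-0.33 without HLU replicate 2, 0.63 without HLU replicate 1 and -0.020 with library totals), and Saa3, serum amyloid A3, was at 29.8, 20.2, 37.4 and 259 CPM.

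Transcription factors of the lineage had a median of -0.10 over 16 tested genes (-0.38 without HLU replicate 1 to -0.045 without HLU replicate 2). Cebpb, which encodes a C/EBP factor of emergency granulopoiesis, was at 1223 and 1518 CPM in Ctrl and 991 and 117 CPM in HLU (log2 fold change -1.31, adjusted p = 0.546, edgeR), and Spi1, encoding PU.1, at 451, 416, 445 and 616 CPM. The low value of Cebpb in HLU replicate 2 was also seen in mature neutrophils (2668, 3403, 2547 and 322 unscaled CPM) and in skeletal barcodes (870, 937, 1300 and 107). The S phase genes had a median of -0.12 over 18 tested genes, which was -0.83 without HLU replicate 2 and 0.27 without HLU replicate 1. The G2 and M phase genes had a median of -0.24 over 21, which ranged from -0.68 (without HLU replicate 1) to 0.018 (without Ctrl replicate 2). With each library left out, the median of the early neutrophil genes (0.18 over 11) ranged from 0.15 to 0.36, that of the NRF2 and antioxidant genes (0.25 over 18) from 0.13 to 0.45, that of the glutamine genes (-0.23 over 17) from -0.47 to -0.062 and that of the cytosolic ribosomal protein genes (-0.14 over 83) from -0.31 to -0.038. The late neutrophil list (0.54 over 16) ranged from 0.039 to 0.80, the ATF4 list (-0.48 over 15) from -0.67 to -0.45 (-1.045 with cells thinned to 1000 UMIs) and the histones (-0.37 over 44) from -0.69 to -0.27. The primary granule list, without the 4 genes that the rule limits, was at 0.40 over 5 tested genes and ranged from -0.018 to 0.45. The lowest values of the late neutrophil, histone and primary granule lists were those without HLU replicate 2.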
